A study of Mus musculus with 8 samples.

Results

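The 9 genes Arid3a, Arid3b, Nras, Cdc25a, Plagl2, Rdx, Igf1r, Tgfbr1 and E2f6 are reported or predicted targets of the let-7 microRNAs that lie outside the axis of Lin28b and Hmga2 named in the study's title. They were chosen by name, with earlier results of these data known. All 9 were found among the 19958 genes measured, through 127 probe sets that the platform annotation gives to no other gene. RNA came from mouse cells sorted by flow cytometry as lacking lineage markers and carrying Sca1 and cKit, a gate that holds blood stem cells and early progenitors. The 3 groups were Hmga2+/+ (wild-type) fetal liver at E14.5 (n = 3), Hmga2-/- (knockout) fetal liver at E14.5 (n = 3) and adult Hmga2+/+ bone marrow, from mice between 8 and 12 weeks old (n = 2). The fetal-adult comparison therefore differs in both age and tissue, which cannot be told apart, and the series as used here has no Hmga2-/- adult group. The labels call the samples of a group biological replicates without saying how many embryos or mice each holds, and the sources used here give no strain.

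The let-7 microRNAs are short RNAs that pair through their seed, bases 2 to 8 from the 5′ end, with matching sites in messenger RNAs, which lowers the stability and translation of those RNAs. Lin28b, an RNA-binding protein made by fetal cells, blocks the maturation of let-7 precursors. In blood stem cells the fall of Lin28b after birth is known to accompany the passage from a fetal to an adult programme, and Hmga2, a chromatin protein, is a let-7 target in these cells. The let-7 microRNAs themselves were not analysed here, and no array value given for a target gene measures let-7 pairing.

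Because the 9 genes are grouped by a shared regulator, the mature microRNAs are shown with the seed in capitals, from RefSeq with GRCm38.p6 positions of the copy used.
let-7a-5p (Mirlet7a-1, chr13:48538239-48538260, minus strand): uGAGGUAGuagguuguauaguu
let-7b-5p (Mirlet7b, chr15:85707325-85707346, plus strand): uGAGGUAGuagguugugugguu
let-7c-5p (Mirlet7c-2, chr15:85706616-85706637, plus strand): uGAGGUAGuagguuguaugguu
let-7d-5p (Mirlet7d, chr13:48536078-48536099, minus strand): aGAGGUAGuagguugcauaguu
let-7e-5p (Mirlet7e, chr17:17830366-17830387, plus strand): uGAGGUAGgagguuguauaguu
let-7f-5p (Mirlet7f-1, chr13:48537889-48537910, minus strand): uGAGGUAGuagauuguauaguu
let-7g-5p (Mirlet7g, chr9:106178846-106178867, plus strand): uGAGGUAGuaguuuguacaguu
let-7i-5p (Mirlet7i, chr10:122985698-122985719, minus strand): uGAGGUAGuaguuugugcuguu
miR-98-5p (Mir98, chrX:151913229-151913250, plus strand): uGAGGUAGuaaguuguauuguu
All 9 of these mature forms carry the same 7-base seed, GAGGUAG, whose complement in a target reads CUACCUC. Outside the seed they differ at a few bases.

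Values below are log2 intensities averaged over the probe sets of a gene, and differences are on the same log2 scale. Each gene is compared only with itself between groups, since probe sets of different genes differ in brightness. As a measure of background, the 95th percentile of 980 olfactory receptor genes lay at 5.97. Genes were called at a limma adjusted p under 0.05, with adjustment over all 19958 genes. Array medians ran from 6.20 to 6.27. Hmga2, the deleted gene, averaged 9.02 ± 0.21 (SD, n = 3) in wild-type fetal cells, 5.95 ± 0.12 (SD, n = 3) in knockout cells and 6.90 ± 0.41 (SD, n = 2) in adult cells. Lin28b averaged 7.60, 8.21 and 4.36 in the same order. Of the gate's markers, Kit averaged 9.95, 9.79 and 10.22, and Ly6a, the gene of Sca1, 6.89, 6.39 and 8.72. In bulk RNA, fewer cells of a type and less RNA per cell cannot be told apart.

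All 9 genes averaged higher in wild-type fetal than in adult cells, and 1 of them, Arid3a, passed the test. Over all genes 3.19% were called in this comparison, 2.36% higher and 0.832% lower, and 43.3% had a difference above 0. At an unadjusted p under 0.05 there were 7 of the 9, all higher in fetal cells, where all genes gave 11.3% higher and 7.29% lower. The median difference of the 9 genes was 0.76, beside -0.06 over all genes and 0.10 over the 10910 genes above background in some group. In 8 of the 9 the 3 wild-type fetal arrays all lay above both adult arrays, as did 15.7% of all genes, and Tgfbr1 was the exception. All 9 belong to the 10910 genes above background, which are the closer base. Of these, 6356 had a difference above 0, and 468 were called higher and 145 lower. Unadjusted p lay under 0.05 for 2174 of them with fetal cells higher and for 869 with adult cells higher. In 2788 of them the wild-type fetal arrays all lay above both adult arrays. Between knockout and wild-type fetal cells no member was called, and the median difference was 0.02. Knockout fetal cells were called higher than adult cells for Arid3a, Cdc25a, Plagl2 and Rdx, 4 of the 9 genes, where 8.91% of all genes were called, 5.8% higher and 3.11% lower. In that comparison all 9 differences were above 0 (43.6% of all genes), 7 of the 9 had no overlap of the arrays, higher in knockout cells (20.6% of all genes), and 7 had an unadjusted p under 0.05 (14.7% of all genes higher and 14.7% lower). Of the 10910 genes above background, 6571 had a difference above 0 there, and 1133 were called higher and 376 lower. The knockout arrays all lay above the adult arrays in 3618 of them. Unadjusted p lay under 0.05 for 2773 of them with knockout cells higher and for 1339 with adult cells higher. These comparisons share arrays, so the counts are not independent of each other. The counts describe the 9 genes and test nothing about let-7 targets as a class.

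**Figure D1:**
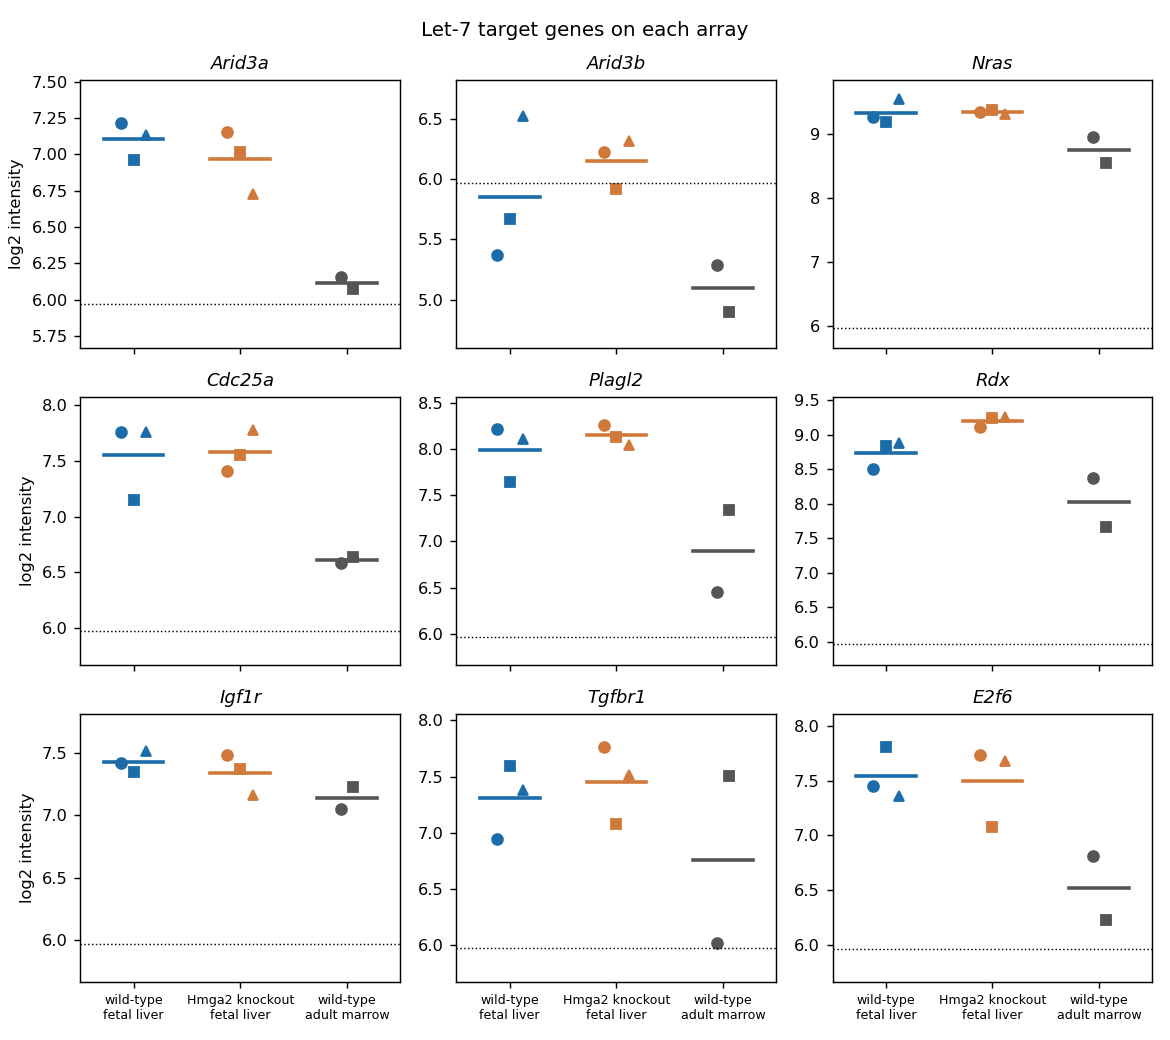
Log2 intensity (vertical axis) of each of the 9 genes on the 8 arrays, with circles, squares and triangles for replicates 1, 2 and 3, horizontal bars for group means and the dotted line for the background level of 5.97. For Arid3a both adult arrays sit near 6.1 while the 6 fetal arrays lie between 6.73 and 7.21, and for Tgfbr1 the adult arrays are 6.01 and 7.51, a spread wider than that of either fetal group.

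Among the DNA-binding proteins, Arid3a encodes a factor with an AT-rich interaction domain that is needed for normal blood stem cell and B lymphocyte development. The wild-type fetal arrays read 7.21, 6.96 and 7.14, the knockout arrays 7.15, 7.02 and 6.73, and the adult arrays 6.15 and 6.08. Every fetal array of either genotype was thus above both adult arrays, which lay just over background. Arid3a was 1.98-fold higher in wild-type fetal than in adult cells (0.99, SE 0.18, adjusted p = 0.024) and 1.80-fold higher in knockout fetal than in adult cells (0.85, SE 0.18, adjusted p = 0.025). The fetal genotypes differed by -0.14 (95% interval -0.50 to 0.22, adjusted p = 0.834). The first of these calls was lost without wild-type array 1 (adjusted p = 0.0576) or 3 (0.0673) and without adult array 1 (0.069) or 2 (0.0729), with differences of 0.93 to 1.06. The call of knockout against adult cells was lost without knockout array 1 (adjusted p = 0.0723) or 2 (0.0743). It was also lost without adult array 1 (difference 0.89) or 2 (difference 0.81).

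Arid3b, the closest relative of Arid3a, was near background. It read 5.37, 5.67 and 6.52 in wild-type fetal cells, 6.22, 5.91 and 6.32 in knockout cells and 5.29 and 4.90 in adult cells. Only wild-type array 3 and knockout arrays 1 and 3 passed the background level. The measured difference between wild-type fetal and adult cells was 0.76 (SE 0.31, adjusted p = 0.237), and no fold is given because both means were below background. Without wild-type array 3, the array of that group above background, the difference was 0.42. Knockout cells were at least 1.13-fold above adult cells (measured difference 1.06, SE 0.31, adjusted p = 0.066). That difference was called without wild-type array 3 (adjusted p = 0.0198), which enters only through the shared spread. The third family gene, Arid3c, lay below background in all 3 groups.

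Plagl2 encodes a zinc finger transcription factor related to Plag1, an oncogene that activates growth genes such as Igf2. It read 8.21, 7.64 and 8.11 in wild-type fetal cells, 8.26, 8.13 and 8.05 in knockout cells and 6.46 and 7.34 in adult cells. The 6 fetal arrays were all above the adult arrays, which stood farther apart than any fetal arrays of 1 genotype. The difference between wild-type fetal and adult cells was 1.09 (2.13-fold, SE 0.27, adjusted p = 0.066), and that between knockout and adult cells was 1.25 (2.38-fold, SE 0.27, adjusted p = 0.027). Without adult array 2, the higher of the pair, the wild-type difference grew to 1.53 (adjusted p = 0.0234), and without adult array 1 it was 0.65. The call in knockout cells was lost without knockout array 1 (0.0761), 2 (0.0736) or 3 (0.0635) or adult array 1 (0.131, difference 0.81). Of its relatives, Plag1 had a difference of 1.17 in wild-type cells (adjusted p = 0.060) and was called higher in knockout than in adult cells (1.33, adjusted p = 0.026), a call lost without knockout array 1 or 3 or either adult array (up to 0.0853). Plagl1, an imprinted growth-restraining gene also listed among let-7 targets, had a wild-type difference of 0.70 (at least 1.40-fold, adjusted p = 0.150).

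Among the cell-cycle genes, Cdc25a encodes a phosphatase that removes inhibitory phosphates from cyclin-dependent kinases and so permits entry into and passage through S phase. It read 7.76, 7.14 and 7.76 in wild-type fetal cells, 7.41, 7.55 and 7.78 in knockout cells and 6.58 and 6.64 in adult cells. The adult arrays lay close to each other and below every fetal array. The wild-type difference was 0.95 (1.93-fold, SE 0.22, adjusted p = 0.055), just missing the threshold, and the knockout difference was 0.97 (1.95-fold, SE 0.22, adjusted p = 0.0315), which was called. Without wild-type array 2, the lowest, the first was called as well (adjusted p = 0.0369). The second was lost without any 1 of the 3 knockout arrays (0.0613, 0.0809 and 0.0876) or of the adult arrays (0.123 and 0.0824). Between the fetal genotypes the difference was 0.02 (95% interval -0.42 to 0.47).

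The kinases, cyclins and checkpoint genes that work with Cdc25a are a list of 12 measured genes besides it. Of these, 10 had a difference above 0 in wild-type fetal cells, 5 were called higher and 0 lower at an adjusted p under 0.05, and the median difference was 1.01. Wee1, a kinase that opposes Cdc25a on the same phosphates, was lower without overlap of the arrays (-0.51, unadjusted p = 0.0175, adjusted p = 0.165), and it is named here after its value was seen. Ccna2, the S and G2 phase cyclin A, was higher by 1.72 (adjusted p = 0.00497), and Chek1, the checkpoint kinase that marks Cdc25a for destruction, by 1.68 (adjusted p = 0.00803). Cdk1, the kinase of mitotic entry, was higher by 1.21, Ccnb2, a mitotic cyclin, by 1.03 and Ccne1, the G1 to S cyclin E, by 1.00. Only Ccna2 and Chek1 among the 5 were called whichever array was left out, and Ccne1 lost its call without any 1 of the 8. The related phosphatases did not pass. Cdc25b differed by -0.08, and Cdc25c, at 1.38, was at least 2.20-fold higher (adjusted p = 0.085) and was called in knockout cells (2.02, at least 3.44-fold, adjusted p = 0.0174), a call lost without knockout array 2 or adult array 1 (up to 0.0881). A wider list of 33 measured proliferation genes had a difference above 0 for all 33, with 15 called higher and a median of 1.03. Of those 15 calls, 5 held whichever array was left out. In knockout against adult cells 21 of the 33 were called higher, 13 of them whichever array was left out, and 7 of the 12 genes around Cdc25a. The mean of that list per array ran from 8.50 to 8.90 in wild-type fetal cells, from 8.77 to 8.90 in knockout cells and from 7.43 to 7.84 in adult cells. It thus had the same direction as the mean fetal-adult differences of the 9 genes, and its part in them was not tested. The list mean was above both adult arrays on every fetal array, which was not so for Tgfbr1, or for Igf1r in knockout cells. A mean of 33 genes and the value of a single gene are unlike measures, so nothing about that part is read from this contrast.

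The promoter of Cdc25a is shown because it held an E2F-type motif, and E2F factors, the family of E2f6, are known for their control of S phase genes. In the 300-base RefSeq window at chr9:109875329-109875628 (GRCm38.p6, plus strand, 250 bases before the start to 50 after), the match is in capitals.
Cdc25a promoter: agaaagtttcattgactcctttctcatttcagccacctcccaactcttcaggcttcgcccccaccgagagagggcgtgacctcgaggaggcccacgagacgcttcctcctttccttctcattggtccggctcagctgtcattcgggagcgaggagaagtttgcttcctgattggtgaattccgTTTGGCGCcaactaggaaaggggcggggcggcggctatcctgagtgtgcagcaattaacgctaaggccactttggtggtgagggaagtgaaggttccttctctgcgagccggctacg
The search was for TTTCGCGC or TTTGGCGC on either strand. It found this match 67 bases before the start, and no other in the 10 windows of the 7 members that had one. Of all 32851 promoter windows 0.813% held a match. A match describes letters and is not evidence of binding.

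E2f6 encodes an E2F family member that lacks the activation domain of the others and represses genes with Polycomb-type partners. It read 7.45, 7.81 and 7.36 in wild-type fetal cells, 7.73, 7.08 and 7.68 in knockout cells and 6.82 and 6.23 in adult cells. All fetal arrays lay above the adult arrays, with knockout array 2 the nearest. The wild-type difference was 1.02 (2.02-fold, SE 0.26, adjusted p = 0.074) and the knockout difference 0.97 (1.96-fold, SE 0.26, adjusted p = 0.0505). Neither passed, although both were called when the median rather than the mean over its 8 probe sets was used (adjusted p = 0.0327 and 0.0133), and the knockout difference also without dim genes (0.0409) or dim probe sets (0.0314).

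Of 12 other E2F and pocket protein genes none was called in wild-type fetal against adult cells, and the median difference was 0.20. In that comparison an unadjusted p under 0.05 was reached by 3 of the 12, of which 2 were higher in fetal cells. The activating E2Fs differed by -0.05 for E2f1 and 0.32 for E2f3, and E2f2 lay below background in all groups. E2f4 differed by 0.23, E2f7 by 0.03 and E2f8 by 0.86 (adjusted p = 0.082). E2f5, a pocket protein-binding repressor and let-7 target, was at least 1.33-fold higher (0.96, adjusted p = 0.065). Knockout cells were called higher than adult cells for E2f3 (0.96, adjusted p = 0.047) and E2f5 (1.01, at least 1.37-fold, adjusted p = 0.034). The E2f3 call was lost in 7 and the E2f5 call in 5 of the 8 fits that left out 1 array. In those 8 fits the differences were 0.73 to 1.19 for E2f3 and 0.91 to 1.13 for E2f5. None of the 10 measured partners of E2f6 in its repressor complex was called by limma in any comparison. At an unadjusted p under 0.05, 1 of them was higher in wild-type fetal and 4 in knockout fetal than in adult cells, and 0 differed between the fetal genotypes. Of the 12 E2F and pocket protein genes, none was called between the fetal genotypes. At an unadjusted p under 0.05, 3 were higher and 0 lower in knockout cells, where all 19958 genes gave 709 higher and 814 lower. Without overlap of the arrays 4 of the 12 were higher and 0 lower (1185 and 1569 of all genes).

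Among the receptors, Igf1r encodes the tyrosine kinase receptor for insulin-like growth factors, and it had the smallest fetal-adult difference of the 9. It read 7.42, 7.34 and 7.51 in wild-type fetal cells, 7.48, 7.37 and 7.17 in knockout cells and 7.05 and 7.22 in adult cells. The knockout arrays overlapped the adult ones. The wild-type difference was 0.29 (1.22-fold, 95% interval -0.08 to 0.66, adjusted p = 0.389) and the knockout difference 0.20 (95% interval -0.17 to 0.57, adjusted p = 0.440). Of its ligands, Igf2 was higher in wild-type fetal than in adult cells (1.39, adjusted p = 0.032), a call lost without wild-type array 1 or 2, knockout array 3 or either adult array (up to 0.115). Among 15 other genes of the pathway Igf2 was the only call in that comparison, and the median was -0.19. In knockout against adult cells none of the 15 was called, with 2 higher at an unadjusted p under 0.05. The insulin receptor gene Insr, a let-7 target too, differed by 0.85 (adjusted p = 0.244) and Igf2r, which clears IGF2 from the cell surface, by -0.40 (adjusted p = 0.545).

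Tgfbr1 encodes the type I receptor that phosphorylates Smad2 and Smad3 in response to TGF-β. It read 6.94, 7.60 and 7.38 in wild-type fetal cells, 7.76, 7.08 and 7.52 in knockout cells and 6.01 and 7.51 in adult cells. Adult array 1 was the lowest of all 8, while adult array 2 lay among the fetal arrays. The wild-type difference was 0.55 (SE 0.40, 95% interval -0.35 to 1.45, adjusted p = 0.501) and the knockout difference 0.69 (SE 0.40, adjusted p = 0.276). The sign turned with the adult array that was kept. Without adult array 1 the differences were -0.20 and -0.06, and without adult array 2 they were 1.30 (adjusted p = 0.0753) and 1.44 (adjusted p = 0.038). None of 15 other genes of the TGF-β pathway was called in wild-type fetal against adult cells, with 1 higher at an unadjusted p under 0.05 and a median of -0.11. The partner receptor Tgfbr2 differed by -0.18 and the co-receptor Tgfbr3 by 0.01. Knockout cells were called higher than adult cells for Smad4, the shared Smad, (0.80, adjusted p = 0.045) and lower for Smad7, an inhibitory Smad (-0.69, adjusted p = 0.035). Both of these calls were lost in 6 of 8 fits that left out 1 array. Between the fetal genotypes none of the 15 was called, and 0 were higher and 2 lower in knockout cells at an unadjusted p under 0.05 (709 and 814 of all 19958 genes).

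Nras encodes a small GTPase that relays receptor signals to the MAP kinases. It read 9.26, 9.18 and 9.54 in wild-type fetal cells, 9.34, 9.37 and 9.30 in knockout cells and 8.95 and 8.54 in adult cells. All 6 fetal arrays were above the adult arrays, and the knockout arrays lay close together. The wild-type difference was 0.58 (1.50-fold, SE 0.18, adjusted p = 0.132) and the knockout difference 0.59 (1.51-fold, SE 0.18, adjusted p = 0.074), neither called, and without adult array 2 they were 0.38 and 0.39. Hras, its relative, differed by 0.18 (adjusted p = 0.729). Of 22 measured RAS regulators and MAP kinase genes 2 were called higher in wild-type fetal cells, with a median of 0.12. They were Rasgrp3, a RAS-activating exchange factor (at least 1.59-fold, measured difference 1.84, adjusted p = 0.024), and Rasa2, a RAS GTPase-activating protein (0.76, adjusted p = 0.037). The Rasa2 call was lost without any 1 of the 8 arrays and the Rasgrp3 call without any wild-type array or adult array 2 (up to 0.0814).

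Rdx encodes radixin, which ties the actin cortex to the plasma membrane. It read 8.51, 8.83 and 8.88 in wild-type fetal cells, 9.11, 9.25 and 9.25 in knockout cells and 8.38 and 7.67 in adult cells. It is the member in which the knockout arrays all lay above the wild-type fetal arrays, as they did for 5.94% of all genes. Among the 10910 genes above background they did so for 855. That difference was 0.47 (1.38-fold, SE 0.20, 95% interval 0.01 to 0.92, unadjusted p = 0.045) and did not pass over all genes (adjusted p = 0.647). Unadjusted p lay under 0.05 for 7.63% of all genes in the same comparison. Of the 10910 genes above background it did so for 570 with knockout cells higher and for 411 with wild-type cells higher. The difference between the fetal genotypes was 0.26 without dim probe sets and 0.11 with medians over probe sets. Its largest single probe set value, 2.04, came from probe sets below background that gave the same values in every comparison. Against adult cells the wild-type difference was 0.72 (1.64-fold, SE 0.23, adjusted p = 0.129), which became 1.07 without adult array 1 and 0.36 without adult array 2. Knockout cells were 2.27-fold higher (1.18, SE 0.23, adjusted p = 0.019). The knockout call was lost without knockout array 2 (0.0589) or 3 (0.0548) or adult array 2 (0.0651, difference 0.83). The other proteins of its family differed little between wild-type fetal and adult cells, Ezr by -0.14 and Msn by -0.07. Nf2, a related tumour suppressor, was at least 2.04-fold higher (measured difference 1.43, adjusted p = 0.034) and was the 1 call among 7 partners; it was lost without wild-type array 2 or 3, knockout array 2 or 3 or adult array 1 (up to 0.132).

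**Figure D2:**
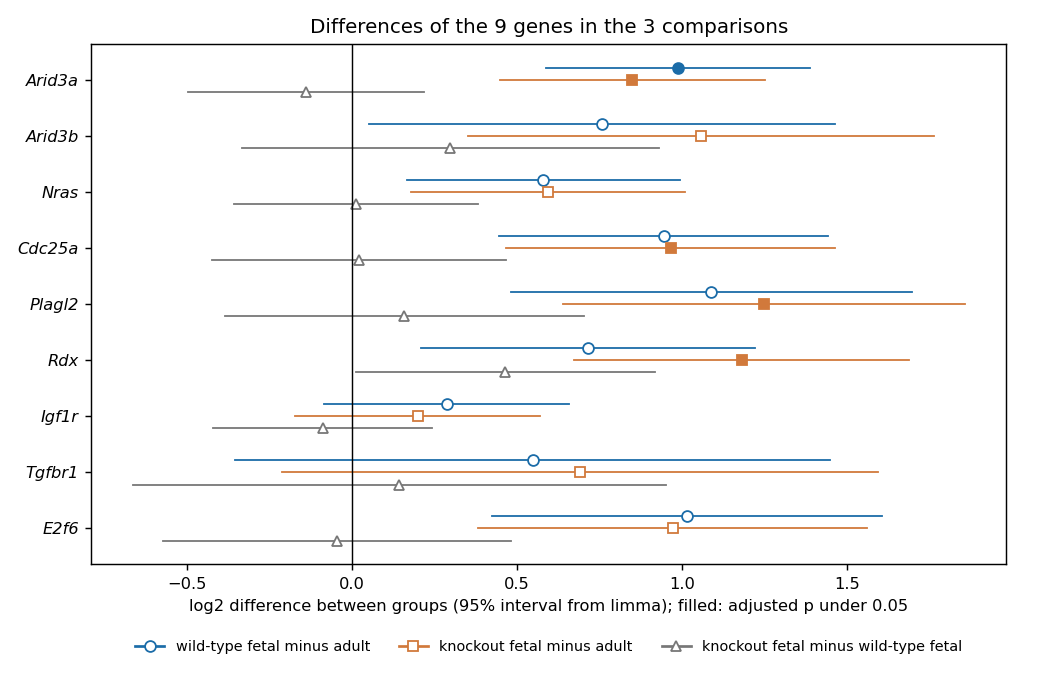
Differences between group means on the log2 scale (horizontal axis) for the 9 genes, with 95% limma intervals and filled symbols for an adjusted p under 0.05. Wild-type fetal minus adult (circles) and knockout minus adult (squares) are above 0 for every gene, with Arid3a filled in the first and Arid3a, Cdc25a, Plagl2 and Rdx in the second, while knockout minus wild-type (triangles) runs from -0.14 to 0.47 with none filled.

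Across the knockout comparison 6 of the 9 genes had a difference above 0, as did 46.8% of all genes, and limma called none of the 9 and 0.01% of all genes. Of the 10910 genes above background, 5932 had a difference above 0. At an unadjusted p under 0.05 there was 1 member, Rdx. The narrowest of the 9 intervals was that of Igf1r (-0.42 to 0.24) and the widest that of Tgfbr1 (-0.66 to 0.95). A p that misses the threshold does not show equal levels, and differences within these intervals are not excluded. The 2 genes called, Hmga2 and Igf2bp2, both lower in knockout cells, are outside the 9. No gene of the proliferation list was called in this comparison, and 1 of its 33 was higher at an unadjusted p under 0.05.

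The probe sets of each gene were also read singly. Of the 127 probe sets, 100 (78.7%) had a difference above 0 in wild-type fetal against adult cells, beside 49.2% of all named probe sets. In that comparison 40 (31.5%) had no overlap of the arrays, higher in fetal cells, beside 12.8%, and 1 was lower without overlap. E2f6 had 8 of 8 above 0, Cdc25a 16 of 17, Plagl2 10 of 11, Rdx 13 of 17 and Nras 11 of 14. Arid3a had 9 of 11, Arid3b 10 of 13, Tgfbr1 10 of 13 and Igf1r 13 of 23. The largest single difference was 3.43, for an Arid3b probe set, and the lowest was -0.99, for an Nras probe set. Probe sets of 1 gene share its RNA and are not replicates. In knockout against wild-type fetal cells 75 of the 127 (59.1%) were above 0, with 4 higher and 8 lower without overlap, beside 50.6% above 0 and 6.57% higher without overlap among all named probe sets. In knockout against adult cells 101 (79.5%) were above 0 and 52 (40.9%) higher without overlap, beside 50.3% and 18.4%, and 8 were lower without overlap. The share of all named probe sets lower without overlap was not counted, so the counts of lower probe sets have no base here.

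**Figure D3:**
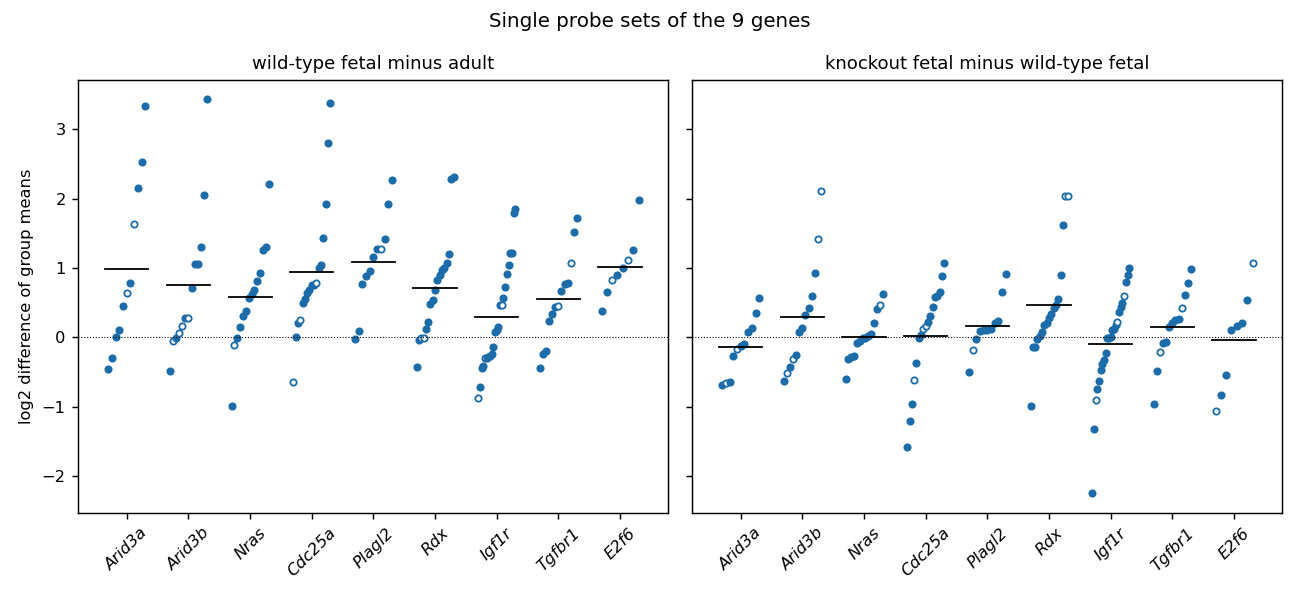
Difference of group means on the log2 scale (vertical axis) for every probe set of the 9 genes, filled where above background in some group and open otherwise, with a bar at the gene's mean over probe sets. In the left panel, wild-type fetal minus adult, 100 of 127 points lie above 0, and in the right panel, knockout minus wild-type, 75 of 127 do.

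The 9 genes were set beside 30 other measured let-7 targets. In wild-type fetal against adult cells 17 of those 30 had a difference above 0 and their median was 0.08, with 2 called higher and 1 lower. The calls were Ccnd1, cyclin D1 of the G1 phase (1.46, adjusted p = 0.00627), Rrm2, a subunit of ribonucleotide reductase that is also on the proliferation list (1.01, adjusted p = 0.0136), and Thbs1, an extracellular matrix protein, at least 1.57-fold lower (measured difference -1.10, adjusted p = 0.0134). Ccnd1 alone of these was called with any 1 array left out. The highest adjusted p was 0.0572, for Thbs1 without adult array 1. In knockout against adult cells 6 of the 30 were called higher and 2 lower, with a median of 0.21. The 6 included Dicer1, which cuts microRNA precursors (0.83, adjusted p = 0.039), Cdc34, a ubiquitin-conjugating enzyme (0.84, adjusted p = 0.043), and Ccnj, a cyclin (0.85, at least 1.57-fold, adjusted p = 0.033). The 2 lower genes were Thbs1 and the chemokine receptor Ccr7 (-0.86, adjusted p = 0.047). Of these 8 calls, those of Ccnd1, Rrm2 and Thbs1 held whichever array was left out. Among the 8 fits that left out 1 array the call was lost in 6 for Dicer1, 5 for Cdc34, 5 for Ccnj and 7 for Ccr7 (up to 0.202). Between knockout and wild-type fetal cells none of the 30 was called, and 1 was higher at an unadjusted p under 0.05. No test set the 9 genes against the 30, and both lists were chosen with earlier results of these data known.

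**Figure D4:**
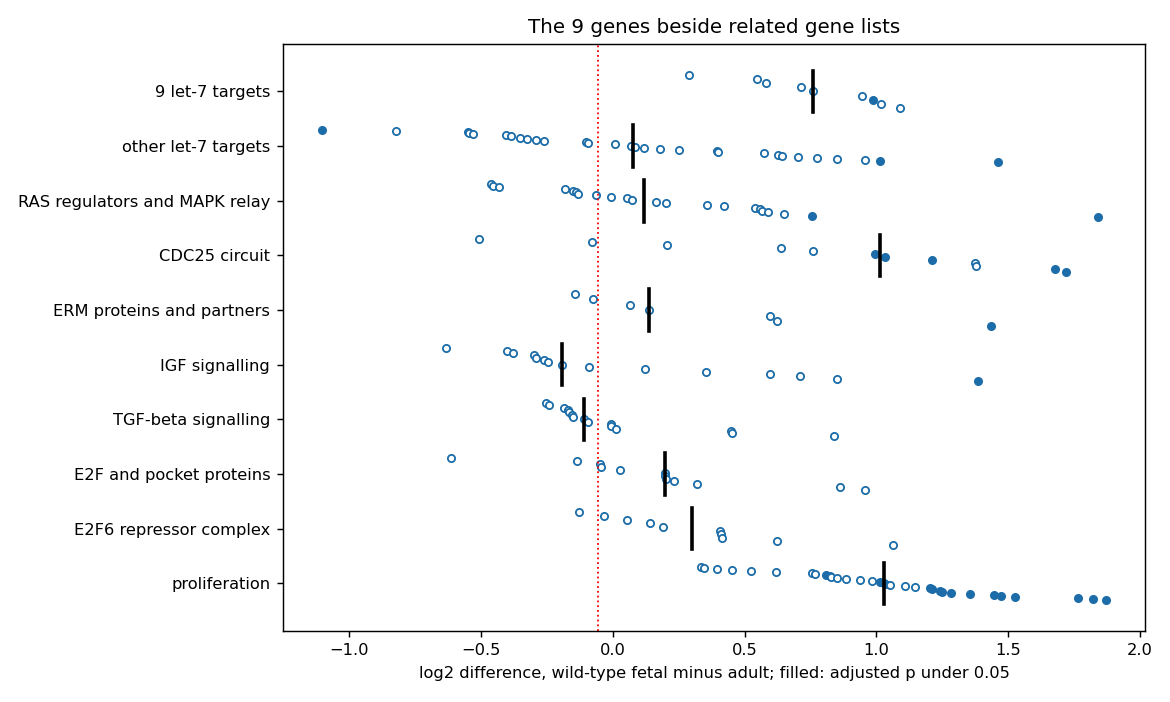
Differences between wild-type fetal and adult cells on the log2 scale (horizontal axis) for the 9 genes and for genes of related lists, 1 point a gene, filled at an adjusted p under 0.05, with a black bar at each list's median and the red dotted line at the median of all genes (-0.06). The 9 genes have a median of 0.76, the other let-7 targets 0.08, the genes around Cdc25a 1.01 and the proliferation genes 1.03.

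Markers of other cells were read beside these results. The mean of 10 measured hepatocyte genes was 5.98 on wild-type fetal array 3, against 5.44 and 5.46 on the other wild-type arrays and 5.37 to 5.48 on knockout arrays. The group means of Alb, Afp, Ttr, Apob, Fgb, Fga and Ahsg lay below background in all 3 groups. On that array 5 of the 9 genes, Arid3b, Nras, Cdc25a, Rdx and Igf1r, were also at their highest of the wild-type fetal arrays. For Cdc25a the margin over array 1 was narrow (7.764 against 7.76). On array 3 E2f6 was at its lowest of the group, and the proliferation list had its highest mean (8.90). The share of all genes highest on that array was not counted. The mean of 8 measured megakaryocyte markers was highest in adult cells, 6.30 to 6.45 against 5.69 to 5.78 in wild-type fetal and 5.61 to 6.13 in knockout cells. Not all 8 went that way. Against adult cells 3 of the 8 had a difference above 0 in wild-type fetal cells (median -0.48) and 2 in knockout cells (median -0.56). Pf4 and Itga2b were called lower in wild-type and in knockout fetal cells. In the wild-type comparison the Itga2b call was lost without any 1 of the 8 arrays and the Pf4 call without wild-type array 1 or 2 or either adult array. In knockout against adult cells the Pf4 call was lost in 5 and the Itga2b call in 6 of the 8 fits that left out 1 array. Stem and progenitor markers had a difference above 0 for 4 of 13 in wild-type fetal against adult cells, with a median of -0.38. At an unadjusted p under 0.05, 4 of them were lower and 2 higher, where all 19958 genes gave 1455 lower and 2258 higher. Without overlap of the arrays 6 of the markers were lower and 2 higher (4007 and 3126 of all genes). Their 1 call in that comparison was Cd48, higher in fetal cells, which was lost without wild-type array 2 or 3 or adult array 1 (up to 0.0868). In knockout against adult cells Cd48 was called higher and Ly6a lower (-2.32, adjusted p = 0.018), the latter lost without knockout array 2 or adult array 1 (up to 0.0887). Among granulocyte markers Ctsg was called lower in wild-type fetal cells (at least 1.48-fold, measured difference -1.55, adjusted p = 0.025). In knockout against adult cells Tfrc of the erythroid, Cd68 of the macrophage, Rag1 of the B lymphoid and Cdh5 of the endothelial markers were called higher, and Vcam1, below background in both groups, lower. These lists were mixed in that comparison. A difference above 0 was seen for 3 of 6 erythroid, 4 of 10 macrophage, 5 of 8 B lymphoid and 6 of 10 endothelial markers. Of the macrophage markers, 1 was higher and 3 were lower at an unadjusted p under 0.05. Each of the calls of Ctsg, Tfrc, Cd68, Rag1, Cdh5 and Vcam1 was lost in 3 to 7 of the 8 fits that left out 1 array (up to 0.246, for Rag1). The part of these cells in the results was not tested.

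For each of the 9, the genes with the most similar profile over the 8 arrays were taken from 10202 genes above background, leaving out unnamed models. Arid3a was closest to Znhit6 (Pearson r = 0.99 over 8 arrays, 0.95 over the 6 fetal arrays), Arid3b to Cd52 (0.99 and 0.98) and Cdc25a to Dnmt3a (0.98 and 0.92). Rdx was closest to Ola1 (0.99 and 0.99) and Igf1r to Copb2 (0.96 and 0.96). Nras was closest to Uqcrh, Plagl2 to Utp14a, Tgfbr1 to Dlg1 and E2f6 to Qrich1. With 8 arrays and so many genes high values of r arise readily, and the gap between fetal and adult arrays enters most of them, so they are given as a description only.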

How the data were processed

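Per the labels' protocols, total RNA of sorted cells was amplified with the Ovation Pico system, labelled with biotin and hybridised. The deposited values are linear intensities made by the authors with RMA, per the submitters' processing notes; the version and the scan batches are not given in the sources used here. They ran from 3.03 to 13252.1. All were log2 transformed with no further normalization. RMA brings arrays to similar distributions (here medians of 6.20 to 6.27), which limits the view of a global shift.

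Of 225993 probe sets, 208881 had 1 symbol and were averaged into 19958 genes (median 8 probe sets a gene); 1668 with several symbols and 15444 with none were not used. Symbols were updated through RefSeq (GRCm38.p6): 17255 were current, 2585 updated and 118 kept. The 3 comparisons were fitted in limma 3.58.1 (R 4.3.3; lmFit, eBayes, all 8 arrays, 1 coefficient per group, two-sided, Benjamini-Hochberg over all genes), after the fit was tested on simulated data. Precision is limited by the number of arrays. A p-value here weighs a group difference only against the spread of these 8 samples, estimated over all groups together. Where the dimmer group's mean lay below the 95th percentile of olfactory receptor genes (5.59 to 6.21 on single arrays), its arrays below that level were raised to it, and the fold is written as a lower bound. With both means below it, no fold was computed.

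The 9 genes and all gene lists were chosen with earlier results of these data known. Named genes are the 9, genes of a list called in any comparison, relatives of the 9, and the closest profiles. Alternatives were the replicate number as a block, the arrays of the compared groups only, quantile normalization, median centring, a trended and robust prior variance, removal of dim genes or dim probe sets, medians over probe sets, a second deposited table of exon intensities, other thresholds and each array left out. That table has no gene names, so 166449 of its 199508 rows were named through a probe set with the same values. Sequences came from RefSeq tables. Tables were made with Python 3.11.15.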

Additional observations from a re-analysis of the deposited data

How the results depend on the processing

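The fetal-adult differences of 8 of the 9 genes stayed above 0 under every alternative run, and those of Tgfbr1 ran from -0.20 to 1.30 (wild-type) and from -0.0555 to 1.44 (knockout) with 1 array left out. For wild-type fetal against adult cells Arid3a kept an adjusted p under 0.05 in 9 of 17 alternatives (0.0228 to 0.144). In the knockout comparison with adult cells Arid3a did so in 11 of 17, Cdc25a in 10 of 17, Plagl2 in 10 of 16 (the exon table has no row for it) and Rdx in 12 of 17.

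Counts of called genes moved widely. For wild-type fetal against adult cells the 637 calls became 185 with the replicate block, 120 with the arrays of these groups only, 179 with medians over probe sets, 322 with the exon table, 88 at an adjusted p under 0.01, 1293 at under 0.1, and 225 to 574 with 1 array left out. For knockout against adult cells the 1779 calls became 489 with the replicate block, 762 with medians, 1103 with the exon table, 210 and 3597 at those thresholds, and 482 to 2437 with 1 array left out. For knockout against wild-type cells the 2 calls became 1 with the exon table, and 2 or 3 with 1 array left out. Under the block none of the 9 genes was called in any comparison. The labels do not say whether replicate numbers pair the samples. Deviations of same-numbered fetal samples correlated at -0.013, 0.018 and -0.016. Those of wild-type fetal and adult samples did so at 0.112 and 0.045, and those of knockout and adult samples at -0.038 and -0.029. With 2 adult arrays the deviations mirror each other, and low correlations over so few arrays do not exclude pairing.

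Between the fetal genotypes, where no member was called, signs turned. Arid3b was -0.0268 with medians over probe sets and E2f6 0.23. Nras was -0.0220 after quantile normalization, -0.0034 after centring and -0.0214 without dim probe sets, and Cdc25a was -0.0073 after quantile normalization. With 1 array left out, Nras ran from -0.0603 to 0.12, Cdc25a from -0.18 to 0.13, Plagl2 from -0.0116 to 0.27, Tgfbr1 from -0.0372 to 0.33 and E2f6 from -0.16 to 0.16. The cause was not tested.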
